A study of Homo sapiens with 9 samples.

Results

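PRAME, SSX2 and SSX2B are cancer-testis genes, which healthy adults transcribe mainly in the testis and which many tumours switch on again. These 3 genes were followed here through all of their isoforms, out of 58214 genes and 203027 transcripts quantified. They were chosen by measured values of the same libraries: SSX2B by its gene fold change after DHX34 knockdown, SSX2 as its copy, and PRAME by an alternative first exon event. Their own differences are therefore given as descriptions, without a test. The deposited tables listed 20 of their isoforms, 14 of PRAME and 3 each of SSX2 and SSX2B.

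The cells were K562, a human line from chronic myeloid leukaemia in blast crisis with an erythroid character, and each group held 3 libraries. All cells were transfected with siRNA at day 0 and again at day 3 and harvested at day 4: with a non-targeting pool (SCR), with a pool against DHX34 or with siRNA against UPF1, so that the controls carried siRNA too. UPF1 is the central helicase of nonsense-mediated decay (NMD), which removes mRNAs with premature stop codons. DHX34 is an RNA helicase that acts in the same pathway, and the study reports a further role for it in pre-mRNA splicing. Comparing each of them with SCR asks which transcripts depend on the depleted factor. A single line was used, and the 2 comparisons share their SCR libraries.

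The libraries held 73478797 to 103625443 expected counts, the numbers of reads that salmon assigns to transcripts, which need not be whole. DHX34 was at 69.3 to 72.1 CPM (counts scaled by the library total) in SCR and at 30.3 to 35.2 in its knockdown. UPF1 fell from 241.4 to 259.0 CPM in SCR to 107.0 to 109.6 in its own. All 11 erythroid marker genes checked, among them GATA1 and the fetal globin genes, were above 10 CPM in every library. Of 23 markers of other cells, 18 were below 1 CPM in every library, and the germ line genes TNP1 and PRM1 were at 0 throughout. The summed level of these 23 was 122.1 to 125.7 CPM in SCR, 137.7 to 142.0 after DHX34 knockdown and 108.1 to 112.9 after UPF1 knockdown. Of the 6 tested in the DHX34 comparison, 2 were called higher, COL1A1 from 0.67 to 4.90 CPM and LYZ from 16.5 to 34.0 CPM. Of the 7 tested in the UPF1 comparison, LYZ, to 13.1 CPM, and EPCAM, from 97.0 to 87.0 CPM, were called lower. The part of this shift in the results was not tested. In bulk RNA, fewer cells of a kind and less RNA per cell cannot be told apart.

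PRAME is the substrate receptor of a cullin-RING ubiquitin ligase built on CUL2, elongin B and elongin C, and is also known as a repressor of retinoic acid receptor signalling. It is an antigen of melanoma and of leukaemic blasts. SSX proteins are nuclear repressors that associate with Polycomb chromatin, and a fusion of SS18 with SSX1 or SSX2 drives synovial sarcoma. Cancer-testis genes, many of them in multicopy families on the X chromosome, are held silent in somatic tissue largely by promoter DNA methylation.

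PRAME (ENSG00000185686) lies on the minus strand of chromosome 22 at 22q11, chr22:22547701-22559361 in GRCh38. Its isoforms start at 1 of several first exons. In 6 isoforms a distal first exon ends at the donor site at base 22559175. In 2 isoforms, PRAME-201 and PRAME-207, a proximal first exon ends at base 22558971. In PRAME-201 it begins 31 bases downstream of the distal donor, and in PRAME-207 a further 60 bases in. Another 5 isoforms start inside the gene. PRAME-205 was left unplaced, because the deposited table gave it 2179 bases and the GENCODE release 44 model has 2304. In PRAME-202 the start codon lies in exon 3, so its distal first exon is 5′ UTR. The distal and proximal first exons are both spliced to the same exon 2 of 36 bases, except in PRAME-213 and PRAME-214. There the distal first exon joins a longer exon that begins at the same base and retains the next intron. The 2 junctions and the annotated start of PRAME-207 are shown because the junctions separate the distal from the proximal form, while the start of PRAME-207 lies whole inside the first exon of PRAME-201. The model of PRAME-205 in release 44 has the proximal donor too. Capitals mark the last bases of the first exon in the junctions, and in the third line the first bases of PRAME-207, which follow bases that belong to PRAME-201 as well.
Distal junction, chr22:22559175-22559189 to chr22:22557566-22557580, minus strand: GTGACCTGTCAACAGcaacttcgcggtgtg
Proximal junction, chr22:22558971-22558985 to chr22:22557566-22557580, minus strand: CGCGCGCTCCAGAGAcaacttcgcggtgtg
Start of PRAME-207, chr22:22559069-22559098, minus strand: ggaggggcgtgaatgCGTGGATTTCTGTGG

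**Figure D1:**
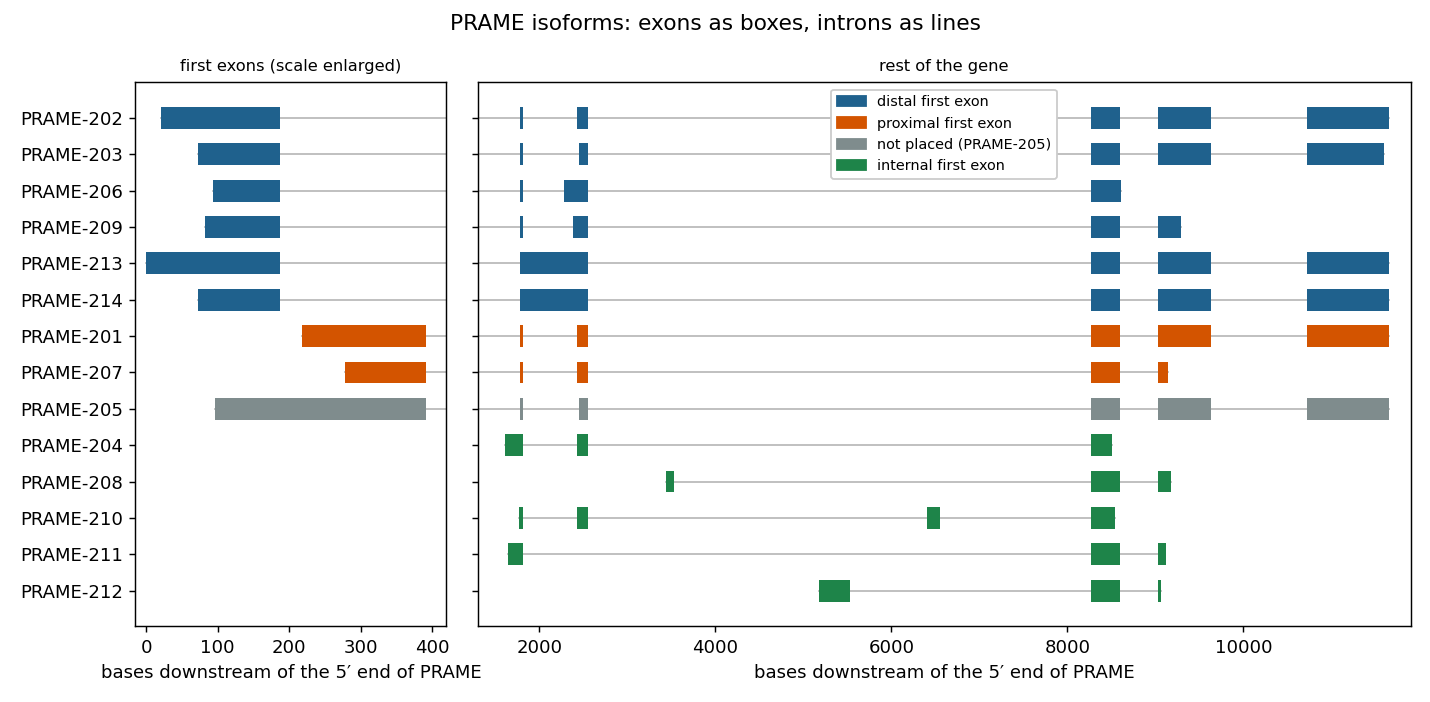
Exons (boxes) and introns (lines) of the 14 PRAME isoforms of the deposited tables, as placed by GENCODE release 44. The horizontal axes give bases downstream of the 5′ end of the gene, with the first exons enlarged in the left panel and the colours giving the first-exon form. PRAME-207 begins 60 bases inside the first exon of PRAME-201 and ends in exon 5.

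PRAME-207 has 705 bases and its annotated model stops within exon 5. It matches bases 61 to 765 of the 2202 bases of PRAME-201, and 0 of its 675 words of 31 bases are unique to it among the transcripts. A read from PRAME-207 can therefore also be read as PRAME-201, and the 2 isoforms are given alone and summed. PRAME-214, which retains an intron, is in the same way contained in PRAME-213.

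SSX2 (ENSG00000241476, minus strand, chrX:52696896-52707178) and SSX2B (ENSG00000268447, plus strand, chrX:52751132-52790305) are inverted copies at Xp11, with 43953 bases between them. Their main transcripts SSX2-202 and SSX2B-202 have the same 1281 bases in GENCODE release 44, with 0 differences, and in the deposited tables their lengths were 1292 and 1291. Whether the further bases of the deposited models tell the copies apart was not tested. Of the 31-base words of the SSX2 locus, 99.7% occur in the SSX2B locus, and 34 of 10492 do not. The copy-specific part is SSX2B-204, whose last exon reaches far beyond the duplicated stretch. It holds 688 words that no other SSX2 or SSX2B transcript has. The stretch upstream of each copy is printed because it is identical, base for base, in both. Capitals mark CpG dinucleotides, the sites of DNA methylation.
SSX2 upstream, chrX:52707299-52707428, minus strand: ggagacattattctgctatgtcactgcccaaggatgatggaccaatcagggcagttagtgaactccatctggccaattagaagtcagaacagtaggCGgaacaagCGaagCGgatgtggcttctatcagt
SSX2B upstream, chrX:52751002-52751131, plus strand: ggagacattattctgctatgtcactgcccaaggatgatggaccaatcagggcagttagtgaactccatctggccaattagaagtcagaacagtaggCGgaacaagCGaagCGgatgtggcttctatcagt

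Each of these 130-base stretches holds 3 CpG and 2 matches to the CCAAT box, searched as CCAAT or its reverse complement ATTGG. A further 3494 bases upstream are identical too. The 154 bases upstream of PRAME, at chr22:22559362-22559515 on the minus strand, hold 5 CpG, in capitals, and 0 CCAAT matches.
PRAME upstream: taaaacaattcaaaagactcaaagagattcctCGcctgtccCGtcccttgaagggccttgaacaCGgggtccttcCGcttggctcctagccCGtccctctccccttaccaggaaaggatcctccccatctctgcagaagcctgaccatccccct
In the wider RefSeq windows of GRCh38 around annotated starts, PRAME had 13 CpG in the most upstream window and SSX2B had 10, against a median of 14 over 35116 windows. A CCAAT match in either direction was held by 34.6% of those windows. The SSX2B window had 3 such matches and the most upstream PRAME window 0. These are counts of letters, not of binding.

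PRAME was abundant in K562. At 1065 ± 33.9 TPM in SCR (a level per length that is scaled to the same total in each library; SD, n = 3) it stood at rank 149 of 58214 genes. Among PRAME, the summed SSX2 copies and the 110 other listed cancer-testis genes found in the tables it was at rank 3, after GAGE12F and GAGE2A. The SCR libraries had 1093, 1075 and 1028 TPM, the DHX34 knockdown 1155, 1168 and 1206, and the UPF1 knockdown 1026, 1053 and 1055. On this scale the DHX34 knockdown lay wholly above SCR and the UPF1 knockdown overlapped it.

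Counted as reads without a correction for length, the same gene gave another order. SCR had 1803, 1754 and 1709 CPM, the DHX34 knockdown 1737, 1730 and 1788, and the UPF1 knockdown 1557, 1542 and 1560. In CPM the DHX34 knockdown overlapped SCR and the UPF1 knockdown lay wholly below it. The edgeR fit with TMM size factors gave PRAME a log2 fold change of -0.09 (SE 0.038) after DHX34 knockdown and of -0.28 (SE 0.026) after UPF1 knockdown, whereas the log2 ratios of mean TPM were 0.14 and -0.03. The choice of scale therefore turned the direction in the DHX34 comparison.

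All genes moved with the scale. In the DHX34 comparison the median log2 difference of the 17004 genes tested was 0.02 in the TMM fit, 0.10 in CPM and 0.19 in TPM, and in the UPF1 comparison of 17184 genes it was 0.02, 0.12 and 0.23. Relative to that median, PRAME lay at -0.10 in the TMM fit and at -0.04 in TPM after DHX34 knockdown, and at -0.30 and -0.26 after UPF1 knockdown. After DHX34 knockdown 38.7% of all genes tested lay wholly above SCR in TPM and 32.5% in CPM, while 5.72% and 11.6% lay wholly below. After UPF1 knockdown the shares were 47.2% above and 6.81% below in TPM, and 38.3% above and 14.6% below in CPM. PRAME's position above SCR in TPM after DHX34 knockdown was thus shared by over 38% of genes.

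PRAME-207, the short proximal isoform, had 0 reads in all 3 SCR libraries. In the DHX34 knockdown it had 2057, 2072 and 1869 reads, and in the UPF1 knockdown 199.9, 1836 and 1310. All 6 knockdown libraries were above all SCR libraries, and the UPF1 knockdown libraries differed among themselves more than the DHX34 ones did. In TPM the DHX34 knockdown had 47.4, 65.1 and 54.2, and the UPF1 knockdown 6.32, 46.4 and 30.3.

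Isoforms of this kind were rare but not particular to PRAME. Of 28304 isoforms considered in the DHX34 comparison, 46 (0.163%) had under 1 read in every SCR library and at least 100 in every knockdown library, and 29 (0.102%) the reverse. In the UPF1 comparison 41 of 29857 (0.137%) appeared and 27 (0.0904%) vanished. The rule for choosing PRAME used the same libraries, so nothing is read from its place among them. Containment was looked for only in longer transcripts of the same gene, so copies in other genes do not count. Of the appearing isoforms that GENCODE holds at the same length, 3 of 33 in the DHX34 comparison were contained whole in such a transcript. In the UPF1 comparison 5 of 29 were. These are 9.09% and 17.2%, with PRAME-207 itself counted in both. Of the vanishing isoforms 3 of 23 and 1 of 24 were, or 13.04% and 4.17%. Among all isoforms considered this share was 1.20% and 1.22%.

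PRAME-201, the long isoform that contains PRAME-207, moved the other way. It was at 271.8, 263.1 and 247.4 TPM in SCR, at 221.8, 215.5 and 225.9 after DHX34 knockdown, and at 251.8, 214.9 and 234.6 after UPF1 knockdown. The DHX34 libraries lay wholly below SCR, and the UPF1 libraries overlapped it. Of all genes, 5.72% lay wholly below SCR in TPM after DHX34 knockdown, and no such share was counted over isoforms. Within the UPF1 knockdown, replicate 1 had the most PRAME-201 and the least PRAME-207, and replicate 2 the reverse.

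Summed in TPM, the 2 proximal isoforms no longer separated the groups. They had 271.8, 263.1 and 247.4 TPM in SCR, 269.2, 280.6 and 280.1 after DHX34 knockdown, and 258.1, 261.4 and 265.0 after UPF1 knockdown, and both knockdowns overlapped SCR. PRAME-207 made up 17.6% to 23.2% of this sum after DHX34 knockdown and 2.45% to 17.8% after UPF1 knockdown. Since PRAME-207 is short, the same reads weigh more in TPM: it took 1.20% to 1.64% of the PRAME reads of a DHX34 knockdown library and 4.10% to 5.58% of its PRAME TPM. The TPM sum of the pair therefore also depends on how reads were divided within it. Of the PRAME reads, the pair held 28.4% to 29.7% in SCR, 24.5% to 25.3% after DHX34 knockdown and 26.4% to 29.5% after UPF1 knockdown. In that share the DHX34 libraries lay wholly below SCR. The mean of PRAME was 111.0 TPM higher after DHX34 knockdown. PRAME-207 differed by 55.6 TPM and PRAME-201 by -39.7, so the proximal pair differed by 15.9, beside 61.5 for the distal form, 38.02 for the internal form and -4.37 for PRAME-205.

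**Figure D2:**
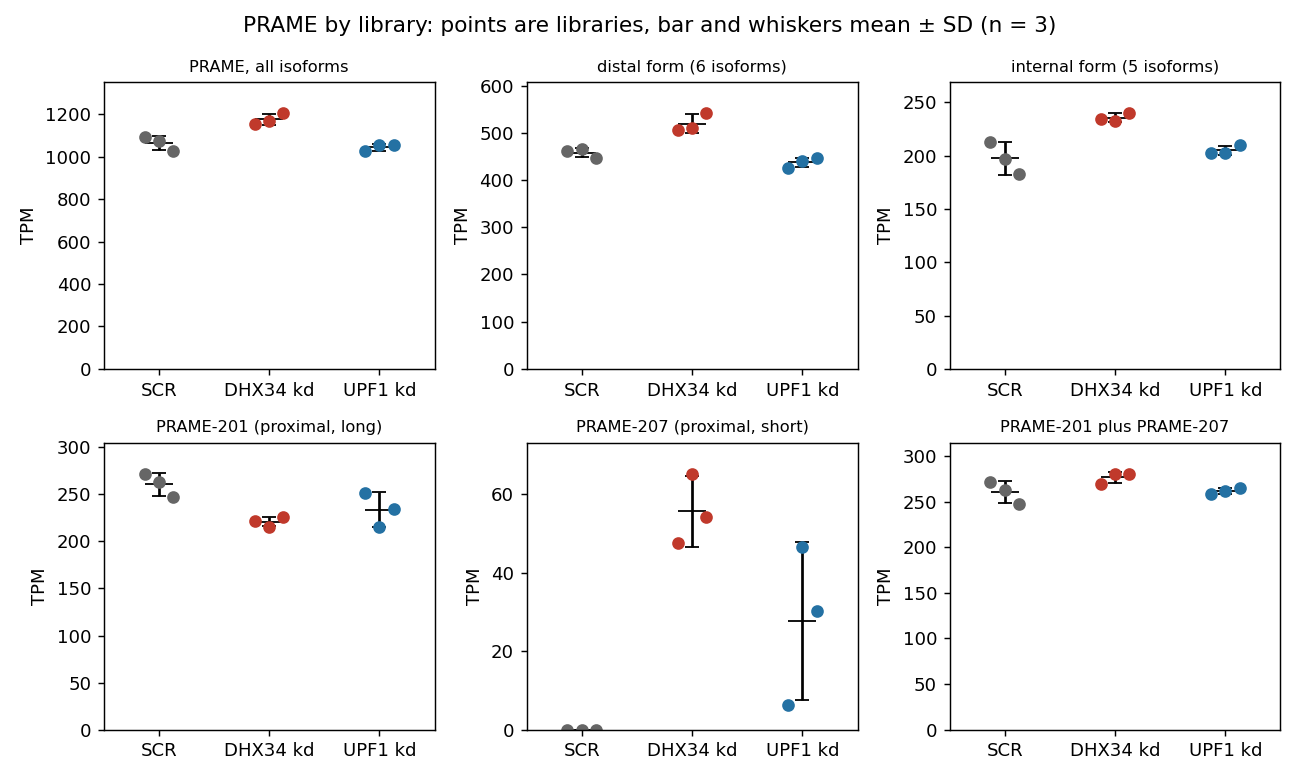
TPM of PRAME and of its main isoform groups in the 9 libraries (vertical axis from 0, groups on the horizontal axis; points are libraries, bar and whiskers mean ± SD, n = 3). PRAME-207 is at 0 in SCR and above 0 in all 6 knockdown libraries, PRAME-201 is lower in the DHX34 knockdown, and the sum of the 2 overlaps between groups.

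The mean share of PRAME TPM from each first exon differed from SCR by less than 2 percentage points. The proximal form gave 24.9%, 24.5% and 24.1% of PRAME TPM in SCR, 23.3%, 24.0% and 23.2% after DHX34 knockdown, and 25.1%, 24.8% and 25.1% after UPF1 knockdown. The mean share differed from that in SCR by -0.95 percentage points after DHX34 knockdown and by 0.56 after UPF1 knockdown, with pooled SDs of 0.41 and 0.30 between replicates. As a share of reads the differences were -4.05 and -0.98 points, so the direction in the UPF1 comparison depended on the unit. With PRAME-205 counted as proximal, a choice made after seeing the data, the differences in TPM share were -2.65 and 0.08 points.

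The distal form was the largest. Its 6 isoforms had 461.7, 466.1 and 447.1 TPM in SCR, 506.9, 510.5 and 542.0 after DHX34 knockdown, and 425.8, 439.8 and 446.1 after UPF1 knockdown. The DHX34 libraries lay wholly above SCR and the UPF1 libraries wholly below it. In TPM 38.7% of all genes tested lay wholly above SCR after DHX34 knockdown, and 6.81% wholly below it after UPF1 knockdown. These shares are of genes, and none was counted over isoforms. The distal share of PRAME TPM was 42.2% to 43.5% in SCR, 43.7% to 44.9% after DHX34 knockdown and 41.5% to 42.3% after UPF1 knockdown, mean differences of 1.15 and -1.18 points. As a share of reads both differences were positive, 4.70 and 0.73 points.

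Within the distal form PRAME-202 and PRAME-203 carried most of the RNA. PRAME-202 had 179.8, 182.4 and 192.9 TPM in SCR, 210.9, 223.0 and 203.0 after DHX34 knockdown and 168.4, 175.4 and 177.8 after UPF1 knockdown, so the DHX34 libraries were all higher and the UPF1 libraries all lower. PRAME-203 had 206.5, 207.0 and 192.5 TPM in SCR, 219.3, 214.3 and 227.7 after DHX34 knockdown and 168.3, 179.6 and 184.7 after UPF1 knockdown, in the same order. PRAME-214, the coding isoform that retains an intron, had 69.4, 71.7 and 56.0 TPM in SCR and 83.2, 79.1 and 77.8 after UPF1 knockdown, where it was the distal isoform that lay above SCR. After DHX34 knockdown it had 71.8, 67.1 and 105.9 TPM, with replicate 3 apart from the others. The rest of the distal form was small: PRAME-206 and PRAME-209 stayed between 1.79 and 3.62 TPM in every library, and PRAME-213 was at most 0.60 TPM.

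The isoforms that begin inside the gene gave 3.51% to 4.22% of PRAME reads but 17.8% to 20.3% of its TPM, as they are short. Their sum was 213.0, 196.6 and 182.6 TPM in SCR, 234.4, 232.0 and 239.8 after DHX34 knockdown and 202.6, 202.2 and 209.8 after UPF1 knockdown. PRAME-204 made up most of it, with 127.0, 114.2 and 108.4 TPM in SCR and 141.6, 138.4 and 136.5 after DHX34 knockdown. After UPF1 knockdown it had 117.6, 118.0 and 119.2 TPM, within the range of SCR. PRAME-211 was at 69.8 to 81.8 TPM in SCR, 86.2 to 95.5 after DHX34 knockdown and 76.7 to 81.6 after UPF1 knockdown. The minor isoform PRAME-210 was at 2.82 to 3.02 TPM in SCR, at 3.84 to 4.46 after DHX34 knockdown and at 4.40 to 6.58 after UPF1 knockdown, above SCR in both. PRAME-212 was at 0.76 to 1.30 TPM in SCR and at 1.52 to 3.41 in the knockdowns, again without overlap. Over all genes, 38.7% lay wholly above SCR in TPM in the DHX34 comparison and 47.2% in the UPF1 comparison. PRAME-208 had reads in 1 library only, 3.58 in UPF1 knockdown replicate 3. GENCODE gives neither PRAME-210 nor PRAME-212 a coding sequence.

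The unplaced PRAME-205 was at 147.0, 149.1 and 150.5 TPM in SCR, 144.4, 145.1 and 144.0 after DHX34 knockdown and 139.9, 149.7 and 133.8 after UPF1 knockdown. Over the 6 isoforms that run the full length of the gene (PRAME-201, PRAME-202, PRAME-203, PRAME-205, PRAME-213 and PRAME-214) SCR had 874.7, 873.8 and 839.6 TPM. The DHX34 knockdown had 868.1, 865.5 and 906.6, overlapping SCR, and the UPF1 knockdown 812.1, 799.3 and 808.9, wholly below it. Of all genes, 6.81% lay wholly below SCR in TPM after UPF1 knockdown. The sum over these 6 isoforms leaves out PRAME-207, whose reads also match PRAME-201, so it depends on how reads were divided between them.

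SSX2 and SSX2B have to be read together. SSX2-202 had 4850, 4564 and 5892 reads in SCR, 3565, 1414 and 4068 after DHX34 knockdown, and 4875, 4660 and 5407 after UPF1 knockdown. SSX2B-202, with the same sequence in GENCODE release 44, had 0, 181.3 and 63.7 reads in SCR, 1919, 2358 and 512.9 after DHX34 knockdown, and 0, 1431 and 1701 after UPF1 knockdown. These 2 isoforms held at least 99.0% of the reads of both genes in every library. Among the 9 libraries, DHX34 knockdown replicate 2 had the most reads of SSX2B-202 and the fewest of SSX2-202.

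The share of the pair's reads that was given to SSX2B ranged from 0% to 3.80% in SCR, from 11.1% to 62.3% after DHX34 knockdown and from 0% to 23.9% after UPF1 knockdown. UPF1 knockdown replicate 1 gave SSX2B no read, as SCR replicate 1 did, while the other UPF1 knockdown libraries gave it 23.4% and 23.9%. Fitted alone, SSX2B had a log2 fold change of 4.13 (SE 0.77) after DHX34 knockdown, the comparison by which it was chosen. As each library was left out in turn this ran from 3.54 to 5.57. That range adds no support, because the choice used the same libraries. After UPF1 knockdown the value was 3.27 (SE 1.13), from 2.70 to 4.71, and the reads of SSX2B there overlapped SCR. SSX2 alone had -0.95 and -0.29. The stretch that SSX2B has and SSX2 lacks was almost unread: SSX2B-204 had 0 reads in 8 libraries and 8.27 in UPF1 knockdown replicate 3. The retained-intron form SSX2B-201 was at 0 reads in every library. SSX2-201 reached 48.2 reads and SSX2-203 reached 15.7.

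The sum of the copies does not depend on how reads are divided between them. It was 66.2, 66.2 and 65.2 CPM in SCR, 55.9, 52.0 and 57.1 after DHX34 knockdown, and 66.6, 65.9 and 70.2 after UPF1 knockdown. In TPM it was 64.2, 65.9 and 63.8 in SCR, 57.0, 53.5 and 59.6 after DHX34 knockdown and 70.0, 69.6 and 74.1 after UPF1 knockdown. The DHX34 knockdown lay wholly below SCR on both scales, as 11.6% of all genes did in CPM and 5.72% in TPM. The UPF1 knockdown overlapped SCR in CPM and lay above it in TPM, as 47.2% of all genes did.

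**Figure D3:**
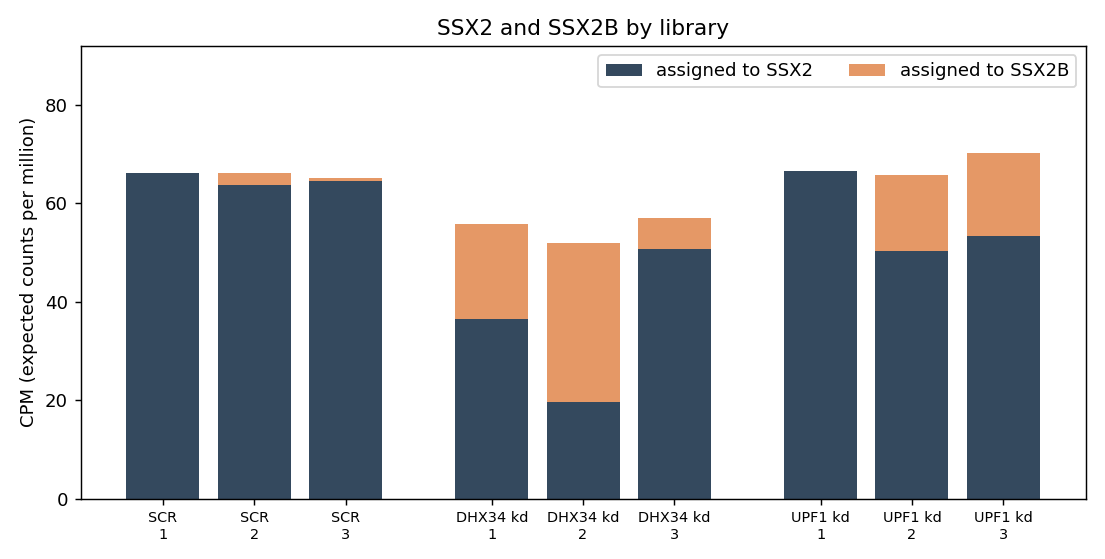
CPM assigned to SSX2 (dark) and SSX2B (light) in each of the 9 libraries, stacked from 0, with group and replicate on the horizontal axis. The height of the stack is 65.2 to 66.2 in SCR, 52.0 to 57.1 in the DHX34 knockdown and 65.9 to 70.2 in the UPF1 knockdown, while the light part runs from 0 to 32.4.

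With the copies summed into 1 row, the log2 fold change was -0.34 (SE 0.041) after DHX34 knockdown and -0.06 (SE 0.036) after UPF1 knockdown. The log2 ratios of mean TPM were -0.19 and 0.14, so that the direction in the UPF1 comparison turned with the scale. Relative to the median of all genes tested, the summed copies lay at -0.36 in the TMM fit and at -0.38 in TPM after DHX34 knockdown, and at -0.08 and -0.09 after UPF1 knockdown. The DHX34 difference was therefore a lower level of the pair, opposite in sign to the fold change of SSX2B alone. In SCR the summed level of 64.6 TPM stood at rank 2045 of 58214 genes.

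The division of reads between gene copies that share much of their sequence was followed in 4 further pairs, picked after their values were seen. NXF2 and NXF2B, cancer-testis members of the nuclear RNA export factor family, share 99.9% of the 31-base words of NXF2. Of the words of NXF2B, 86.39% occur in NXF2. NXF2B had 0 reads in the 3 SCR libraries and 0, 291.0 and 295.1 after DHX34 knockdown, and NXF2 had 308.0, 304.6 and 305.3 in SCR and 515.0, 0 and 0 after DHX34 knockdown. In 8 of the 9 libraries 1 of the 2 copies had no read, and the share given to NXF2B was 100%, 100% and 1.48% in the UPF1 knockdown. Their sum was 3.34 to 4.23 CPM in SCR, 3.66 to 5.21 after DHX34 knockdown and 4.09 to 4.26 after UPF1 knockdown, with overlap.

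FAM156A and FAM156B lie close to the SSX2 copies at Xp11, and all 31-base words of FAM156B occur in FAM156A. Of the words of FAM156A, 65.35% occur in FAM156B. FAM156B had 162.3, 138.2 and 75.8 reads in SCR, 0, 0 and 8.27 after DHX34 knockdown and 0, 159.9 and 0 after UPF1 knockdown. It passed the test as lower after DHX34 knockdown (log2 fold change -5.70, edgeR adjusted p 0.000353), although the sum of the pair overlapped SCR, with a lowest library of 19.7 CPM in SCR and 19.6 after DHX34 knockdown. MAGEA2B took 10.4% to 23.5% of the reads of its pair with MAGEA2 in SCR, 16.1% to 21.7% after DHX34 knockdown and 11.5% to 15.6% after UPF1 knockdown. MAGEA9B took at least 99.2% of its pair with MAGEA9 in every library.

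**Figure D4:**
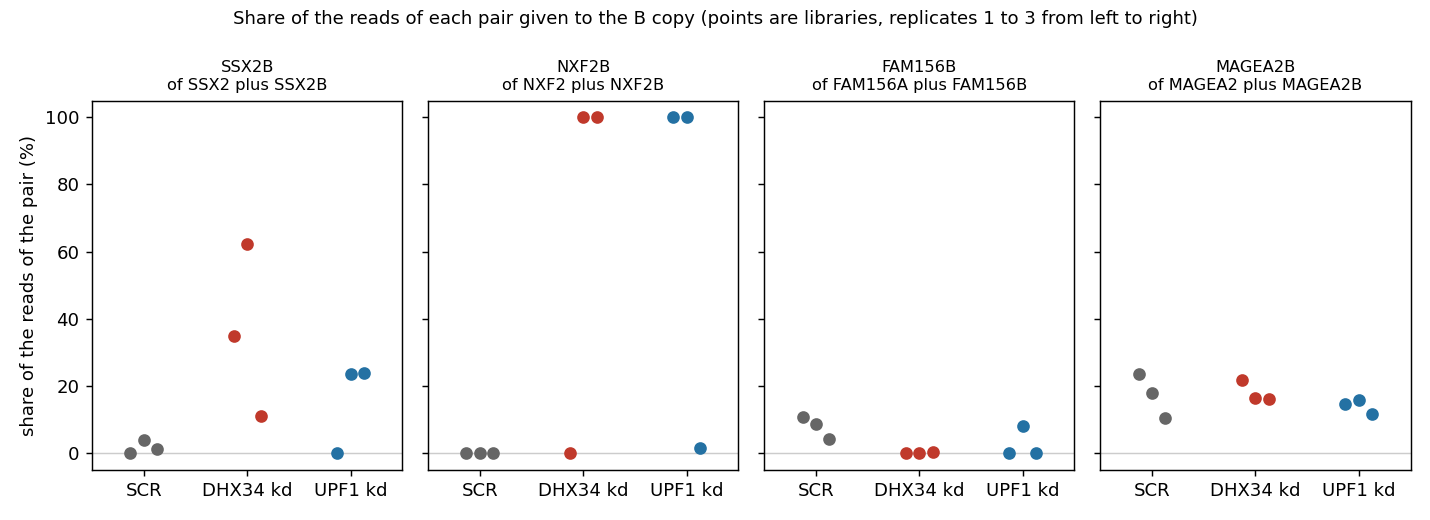
Share of the reads of each pair of copies given to the second copy, in percent on the vertical axis. The groups are on the horizontal axis, with 1 point for each library. SSX2B is at 0% to 3.80% in SCR and reaches 62.3% in the DHX34 knockdown, NXF2B is near 0% or at 100%, and MAGEA2B stays between 10.4% and 23.5%.

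The other cancer-testis genes gave a background for the members. The list held 124 symbols, of which 110 were found in the tables and 57 passed the filter on low counts in each comparison. After DHX34 knockdown 13 fell and 0 rose, where 4.86% of all genes tested fell and 5.54% rose at the same threshold. After UPF1 knockdown 16 fell and 1 rose, against 12.9% and 12.4% of all genes. The median log2 fold change of the 57 genes was -0.19 in the DHX34 comparison and -0.20 in the UPF1 comparison, against 0.02 for all genes in both. On the TPM scale the medians were -0.05 and 0.02, which is 0.23 and 0.21 below the medians of all genes there. The list was drawn up with earlier results of these data known.

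At an unadjusted p under 0.05 the list had 26 genes lower and 2 higher after DHX34 knockdown, and DESeq2 called 18 lower and 1 higher. The 13 calls dropped to 6 without SCR replicate 1 or SCR replicate 3, and to 8 without DHX34 knockdown replicate 1 (7 lower and 1 higher) or replicate 2. Of them 5 were called in all 6 fits that left out a library: GAGE2A, GAGE13, XAGE1B, MAGEA1 and CTCFL. In the UPF1 comparison 10 of the 17 were called in all 6 fits, and 11 were called without UPF1 knockdown replicate 1. With limma on log2(TPM + 0.5), 1 gene of the list was called lower after DHX34 knockdown, and 4 lower and 2 higher after UPF1 knockdown.

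GAGE genes, a tandem family of short acidic antigens, were the most abundant of the list. GAGE12F went from 661.6 CPM in SCR to 582.1 after DHX34 knockdown (log2 fold change -0.27, edgeR adjusted p 0.00349, a call made in 1 of the 6 fits without a library) and to 552.5 after UPF1 knockdown (-0.36). GAGE2A went from 349.6 to 292.0 and 288.9 CPM, with log2 fold changes of -0.34 and -0.38, both called. GAGE2E fell after DHX34 knockdown, with a log2 fold change of -0.48 in a call made in 2 of the 6 fits, and did not pass the test after UPF1 knockdown. The GAGE copies share reads too, so single members are uncertain. Summed over the 11 GAGE genes of the list, SCR had 1246 to 1278 CPM, the DHX34 knockdown 1024 to 1105 and the UPF1 knockdown 1009 to 1091, and neither knockdown overlapped SCR. In CPM, 11.6% of all genes lay wholly below SCR after DHX34 knockdown and 14.6% after UPF1 knockdown.

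Single-copy members and other families moved by differing amounts. XAGE1B went from 158.2 CPM in SCR to 125.1 after DHX34 knockdown (log2 fold change -0.42, edgeR adjusted p 0.000352) and to 123.3 after UPF1 knockdown (-0.46). CTCFL, the testis paralogue of the insulator protein CTCF, fell by 0.26 and 0.29 on the log2 scale from 255.6 CPM in SCR. MAGEA1, of the type I MAGE antigens, had log2 fold changes of -0.42 and -0.24, both called, the latter not without UPF1 knockdown replicate 2. ACTL8 fell after DHX34 knockdown, at -0.65 from 5.66 CPM, a call that was lost without SCR replicate 1, SCR replicate 3 or DHX34 knockdown replicate 1. MAGEA8 fell after UPF1 knockdown, at -0.65 from 3.78 CPM, a call that was lost without UPF1 knockdown replicate 1. MAGEA3 and MAGEA6, which share long stretches of sequence, were at 188.0 and 143.0 CPM in SCR. MAGEA3 was called lower after UPF1 knockdown, at -0.18, but not without UPF1 knockdown replicate 1 or 2, and had 0.05 in TPM (limma), and MAGEA6 passed in neither comparison (-0.15 and -0.16). SSX1, the single-copy relative of the SSX2 pair, was at 111.9 CPM in SCR and had a log2 fold change of -0.19 after DHX34 knockdown (edgeR adjusted p 0.00245), called in 1 of the 6 fits without a library, and of -0.03 after UPF1 knockdown. The 1 gene that rose was PASD1, which had 0.31 after UPF1 knockdown and was not called without UPF1 knockdown replicate 1.

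**Figure D5:**
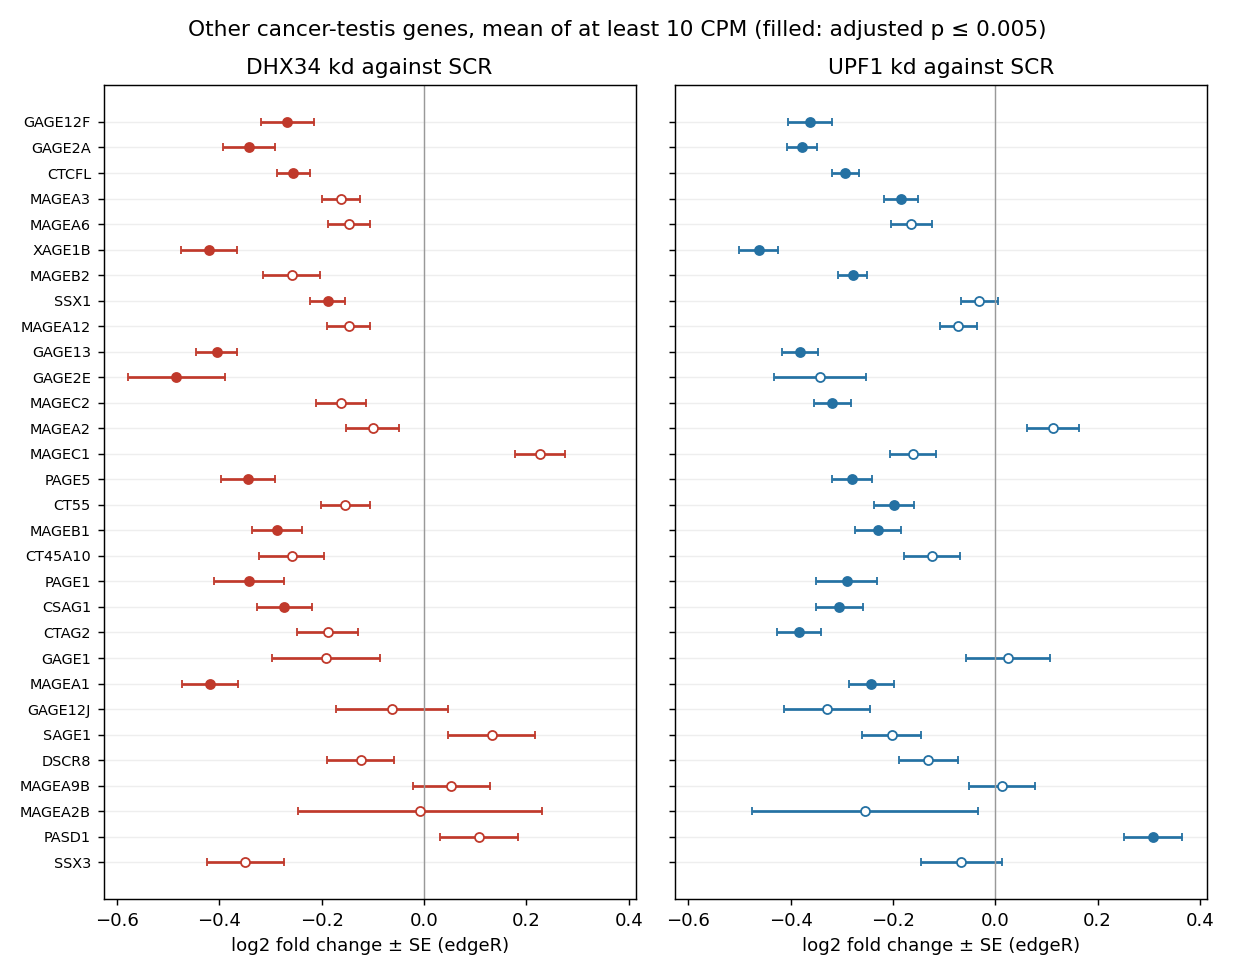
Log2 fold change ± SE (edgeR, horizontal axis) of the 30 other cancer-testis genes that averaged 10 CPM or more, from the most to the least abundant, for the DHX34 knockdown (left) and the UPF1 knockdown (right) against SCR. Filled points passed an adjusted p of at most 0.005. In this TMM fit 26 of the 30 genes lie below 0 in each panel. Of all genes tested, 8018 of 17004 (DHX34) and 8217 of 17184 (UPF1) do.

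Beside these genes, erythroid markers moved as well: of the 11, 3 fell after DHX34 knockdown (4.86% of all genes) and 8 fell and 1 rose after UPF1 knockdown (12.9% and 12.4% of all genes), and their summed level was 11212 to 12024 CPM in SCR, 9866 to 10824 after DHX34 knockdown and 7339 to 7785 after UPF1 knockdown. Whether this shift in erythroid genes had a part in the values of PRAME, SSX2 or the other cancer-testis genes was not tested.

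The shares called over all genes, 5.54% higher and 4.86% lower after DHX34 knockdown and 12.4% and 12.9% after UPF1 knockdown, are the background of each count here. Of 17 partners of PRAME, genes for the ligase, for retinoic acid receptors, for Polycomb repressive complex 2 and for the CCAAT-binding factor NF-Y, 1 rose and 2 fell after DHX34 knockdown. RARG, a retinoic acid receptor, rose from 7.85 to 12.0 CPM (log2 fold change 0.53, edgeR adjusted p 0.000503). NFYC, a subunit of NF-Y, fell by 0.31 on the log2 scale, and RBX1, the RING subunit of cullin ligases, fell by 0.28 in a call made in 1 of the 6 fits without a library. After UPF1 knockdown 5 fell and 1 rose. Among them were 3 small ligase subunits: RBX1 at -0.40, ELOC (elongin C) at -0.36 and ELOB (elongin B) at -0.31, each called in all 6 fits. VHL, the receptor of a related ligase with CUL2, rose by 0.28. CUL2 itself had log2 fold changes of 0.05 and -0.03 and passed in neither comparison, and EZH2, the most abundant of the list at 188.0 CPM in SCR, had -0.13 and 0.12 and did not pass either.

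Of 15 known targets of retinoic acid, 8 were expressed enough to be tested. After DHX34 knockdown 3 rose, where 5.54% of all genes did, and 0 fell at this threshold or at an unadjusted p under 0.05. All 8 had log2 fold changes above 0, with a median of 0.43, while 8018 of the 17004 genes tested lay below 0. CYP26A1, the enzyme that degrades retinoic acid and a direct target of its receptors, rose from 0.47 to 1.80 CPM (log2 fold change 1.86, edgeR adjusted p 0.000114). TGM2, a transglutaminase induced by retinoids, rose from 126.7 to 171.4 CPM (0.35), and DHRS3, which reduces retinaldehyde, rose from 46.8 to 62.7 CPM (0.34), a call made in 2 of the 6 fits without a library. After UPF1 knockdown TGM2 rose by 0.18 and no other target was called. CYP26A1 had -0.24 and DHRS3 -0.13 there, and the median of the 8 was -0.19.

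Of 15 SSX partners and Polycomb repressive complex 1 genes, 3 fell and 1 rose after DHX34 knockdown, where 4.86% of all genes fell and 5.54% rose. BMI1 and RING1, core subunits of that complex, had log2 fold changes of -0.22 each, SSX2IP, a centrosomal protein named for binding SSX2, had -0.17, and CBX2 had 0.22. None of these 4 calls was made in all 6 fits without a library, and in TPM (limma) the differences of BMI1 and SSX2IP were 0.08 and 0.04, above 0. After UPF1 knockdown RING1 (-0.19) and SSX2IP (-0.13) were called lower, in 5 and 0 of the 6 fits without a library and with 0.01 and 0.05 in TPM, where 12.9% of all genes were called lower. SS18, the fusion partner of SSX genes, had -0.08 and 0.00 and passed in neither.

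Of 15 tested genes of DNA methylation and its removal, 3 rose and 1 fell after DHX34 knockdown, where 5.54% of all genes rose and 4.86% fell. TET1, a dioxygenase that oxidises methylcytosine, rose by 0.35 on the log2 scale to 59.5 CPM and ZBTB38, a methyl-CpG binding protein, by 0.35 to 41.8 CPM, both in all 6 fits. TET2 rose by 0.42 and the methyl-CpG reader MBD2 had -0.27, each in 2 of the 6. DNMT1, the maintenance methyltransferase and the most abundant of the list at 268.1 CPM in SCR, had log2 fold changes of 0.12 and 0.03 and passed in neither comparison. After UPF1 knockdown DNMT3B fell by 0.21, called in all 6 fits, but had -0.01 in TPM, and UHRF2 rose by 0.28, called in 2 of the 6. Over all genes 12.9% were called lower and 12.4% higher there.

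The neighbours of the members are read against the same shares, 5.54% higher and 4.86% lower over all genes in the DHX34 comparison and 12.4% and 12.9% in the UPF1 comparison. Of 15 tested genes around PRAME at 22q11, BCR (0.36) rose and SMARCB1 (-0.26) fell after DHX34 knockdown. The SMARCB1 call was made in 5 of the 6 fits without a library. After UPF1 knockdown 4 rose and 3 fell, among them ZNF280A (-0.43), whose gene lies in the same region as PRAME, SPECC1L (0.32) and TOP3B (0.27, called in 2 of the 6 fits without a library). BCR gives the 5′ part of the BCR-ABL1 fusion that K562 carries. Of 14 tested genes around SSX2, HUWE1 (0.35) rose and MAGED1 (-0.25) fell after DHX34 knockdown, called in 4 and 1 of the 6 fits. FAM156B was called lower too, but its sum with FAM156A overlapped SCR. After UPF1 knockdown SMC1A (0.19, called in 5 of the 6 fits) rose. HSD17B10 (-0.45), IQSEC2 (-0.30) and MAGED1 (-0.26, called in 2 of the 6 fits) fell there. The medians of the tested neighbours were -0.02 and 0.10 at 22q11, and -0.02 in both comparisons at Xp11.

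Over the 9 libraries, the genes whose log2(CPM + 1) followed the PRAME sum most closely, out of 10061 genes that averaged 5 CPM or more, were EID1 (Pearson r 0.98), NAP1L5 (0.97), PUF60 (0.97), TLCD1 (0.97) and TP53RK (0.97). All 5 shared its low level after UPF1 knockdown, with log2 fold changes from -0.28 to -0.58 there. The summed SSX2 copies were followed by SBDS (0.99), OR51B5 (0.97), GGCT (0.97), HDAC5 (0.97) and RNF216P1 (0.97), with log2 fold changes from -0.22 to -0.56 after DHX34 knockdown. These values describe 9 libraries that fall into 3 groups and differ in depth, and were taken as the highest of all the genes compared.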

How the data were processed

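Per the labels, poly(A) RNA was enriched from 9 K562 samples, with 3 biological replicates per group by the study's methods. The authors quantified the reads with salmon 1.5.2, correcting for GC bias, against Ensembl release 93 transcripts of GRCh38. The deposited tables give, per transcript, the expected count, the TPM and a length. The authors' other deposited tables hold their own sleuth and SUPPA2 comparisons and were not used. The transcript identifiers were matched to GENCODE release 44 (97.9% matched, 98.1% of the counts in each library), isoforms were grouped by the end of their first exon, and counts and TPM were summed per gene. The strand setting of the quantification is not given in the sources used here.

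Counts were rounded and tested with edgeR 4.0.16 in R 4.3.3 (quasi-likelihood, two-sided, TMM, and a filterByExpr minimum of 10), using the 6 libraries of a comparison. Calls were made at 0.005 after Benjamini-Hochberg adjustment over all genes tested. SSX2 and SSX2B were also fitted as 1 summed row. DESeq2 1.42.0 and limma 3.58.1 on log2(TPM + 0.5) or log2(TPM + 1) served as alternatives. The count model was checked on simulated counts. With 3 libraries against 3, an exact permutation test of a single value cannot go below 0.10, so none was run.

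The members and the lists were chosen with earlier results of these data known. Named were all member isoforms, and from each list the genes called in either comparison (up to 5 by size of change) and the most abundant (up to 5, averaging 50 CPM or more). SSX1, PASD1, CUL2, SS18, the neighbours beyond this rule and the 4 further pairs were chosen after their values were seen. Sequences are from GRCh38 and the windows around annotated starts from RefSeq. Protein sequences were not used here.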

Additional observations from a re-analysis of the deposited data

How the results depend on the processing

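The sums had 3787 reads or more in every library (SSX2 copies; PRAME had more). The limits are the assignment of reads between near-identical transcripts, the scale, and 3 libraries per group. In the ratio of mean TPM, PRAME was at 0.14 (DHX34 comparison) and -0.028 (UPF1), and the summed SSX2 copies were at -0.19 and 0.14. As a share of reads, the differences in the proximal, distal and internal share of PRAME were -4.05, 4.70 and 0.48 percentage points (DHX34) and -0.98, 0.73 and 0.35 (UPF1). With PRAME-205 counted as proximal, an alternative added after seeing the data like the fits of SSX2 or SSX2B alone without a library, the proximal differences were -2.65 and 0.083. The cause of these shifts was not tested, beyond the lower weight of short isoforms in reads than in TPM.

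Of all genes, 1768 were called in the DHX34 comparison, 3396 without a filter on low counts, 3034 with DESeq2, 879 and 805 with limma on log2(TPM + 0.5) and log2(TPM + 1), 4403 at an adjusted p of 0.05, and 781 to 1785 with 1 library left out. The last count was 811, 1160 and 781 without SCR replicates 1, 2 and 3, and 909 and 1082 without DHX34 knockdown replicates 1 and 2. The UPF1 comparison called 4345 genes, and 6917 at 0.05 and 3187 to 3733 with 1 library left out. The 942 up and 826 down of the DHX34 comparison became 786 and 93 in TPM with 0.5 added, and the 2131 and 2214 of the UPF1 comparison became 3213 and 282. The 13 cancer-testis genes called in the DHX34 comparison became 22 without the filter, 1 in TPM with either pseudocount, 25 at 0.05 and 6 to 11 with 1 library left out. The 17 of the UPF1 comparison became 6 in TPM with either pseudocount and 11 to 17 with 1 library left out. The cause of these differences was not tested.

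With the replicate number as a block, the DHX34 comparison called 1007 genes and 7 of the list. Same-numbered libraries did not deviate together (correlations of 0.0044, -0.1357 and -0.2269 with SCR in the DHX34 comparison and 0.1065, -0.0058 and 0.0872 in the UPF1 comparison), so the numbers were not taken to pair samples. No other result for PRAME or the SSX2 copies changed direction under the alternatives run. Restricting to transcripts on primary chromosomes gave no value, because all 20 isoforms that carry these symbols lie on chromosomes 22 and X.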
